A study of Mus musculus with 42 samples.

Results

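The genes described here are 48 genes of the cell cycle, chosen by name, of which 4 regulate entry into S phase, 20 copy DNA and 24 act in mitosis. A probe set carrying the symbol was found for 47 of the 48, 1 probe set for each gene, among the 20672 probe sets of the table. Ccnb1, which encodes cyclin B1, was not analysed here. Expression was measured on Affymetrix Mouse430V2 arrays of wounded skin from diabetic db/db mice, which carry a mutation of the leptin receptor, are obese and hyperglycemic and close wounds slowly. The wounds were 6 mm wide in female mice of 10 to 12 weeks and were treated topically. The first time point was 24 h after a single dose (IL-22-Fc on 5 arrays, VEGF on 5, PDGF on 5 and a control protein on 4). IL-22-Fc is the cytokine IL-22 joined to the Fc part of an antibody. The second was day 7, after 4 doses, when a 2 mm ring of skin around the wound was taken (IL-22-Fc on 5 arrays, VEGF on 5, PDGF on 3 and the control protein on 5). Untreated skin at day 0 gave another 5 arrays, for a total of 42, and the genotype of that skin is not stated in the labels. All labels name the strain C57BL/6, whereas the methods give the db/db mice as a BKS strain and list C57BL/6 mice apart. Labels and methods disagree on the control protein (an antibody to ragweed, or control Fc) and on the VEGF dose (20 µg, or 50 µg). The labels give 50 µg for PDGF, and 50 µg for IL-22-Fc at 24 h, where the series' design text has 20 µg. No dose is given in the labels for IL-22-Fc at day 7.

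A cell that divides passes through G1, copies its DNA in S phase and separates the copies in mitosis. Cyclin D and cyclin E with their kinases release E2F factors, which switch on the genes for DNA replication, and a later wave of genes for the spindle and the chromosomes is switched on toward mitosis through the MuvB complex with B-Myb and FOXM1. In skin, basal keratinocytes and the matrix of growing hair follicles divide most, and after wounding keratinocytes, endothelial cells, fibroblasts and macrophages divide too.

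The promoters of these genes differ in the letters that such factors read, and a few promoters of replication and mitosis genes are shown first. Promoter sequences from RefSeq on GRCm38.p6, 250 bases before to 50 bases after the start, were found for 38 of the 48 genes. Motifs were searched on both strands as E2F cores (TTCCCGC or TTGGCGC or TTCGCGC or TTGCCGC), as the cell cycle homology region or CHR (TTTGAA or TTCGAA) and as the CCAAT box (CCAAT). An E2F core was present in 12 of 17 replication promoters, in 3 of 19 mitosis promoters and in 9.7% of the 27018 promoters of all genes. A CHR was present in 14 of 19 mitosis promoters, 3 of 17 replication promoters and 19.4% of all promoters. All 14 mitosis promoters with a CHR also held a CCAAT box, as did all 3 replication promoters with a CHR. This combination was seen in 7.57% of all promoters. A CCAAT box, with or without a CHR, was present in 16 of 19 mitosis promoters, 12 of 17 replication promoters and 37.8% of all promoters. The reverse of CCAAT can share letters with TTGGCGC. E2F cores that share no base with a CCAAT box remained in 11 replication promoters and 2 mitosis promoters. A match is a description of letters and was not tested as a binding site. The 4 replication promoters below are those of the helicase subunits Mcm5 and Mcm6 and of both subunits of ribonucleotide reductase, Rrm1 and Rrm2. With PDGF at day 7 Mcm5 was higher, Mcm6 was not called and Rrm1 and Rrm2 were lower. They are given as the 250 bases before the start, 5′ to 3′ along the gene's strand, with the motifs in capitals.
Mcm5, chr8:75109259-75109508, plus strand: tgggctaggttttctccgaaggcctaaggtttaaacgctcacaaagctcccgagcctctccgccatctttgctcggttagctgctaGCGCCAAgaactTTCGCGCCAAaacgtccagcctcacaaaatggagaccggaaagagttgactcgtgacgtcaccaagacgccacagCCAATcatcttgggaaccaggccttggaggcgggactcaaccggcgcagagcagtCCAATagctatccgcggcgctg
Mcm6, chr1:128359706-128359955, minus strand: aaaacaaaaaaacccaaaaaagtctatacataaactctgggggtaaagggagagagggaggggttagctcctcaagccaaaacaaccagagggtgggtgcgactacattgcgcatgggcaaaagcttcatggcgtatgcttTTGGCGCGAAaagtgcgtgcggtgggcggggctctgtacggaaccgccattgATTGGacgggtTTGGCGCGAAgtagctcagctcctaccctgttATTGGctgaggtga
Rrm1, chr7:102441445-102441694, plus strand: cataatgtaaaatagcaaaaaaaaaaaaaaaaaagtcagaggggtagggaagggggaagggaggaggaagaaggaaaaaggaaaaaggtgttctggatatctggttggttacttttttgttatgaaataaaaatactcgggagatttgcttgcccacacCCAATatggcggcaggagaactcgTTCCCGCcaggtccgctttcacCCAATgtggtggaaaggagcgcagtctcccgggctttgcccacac
Rrm2, chr12:24708004-24708253, plus strand: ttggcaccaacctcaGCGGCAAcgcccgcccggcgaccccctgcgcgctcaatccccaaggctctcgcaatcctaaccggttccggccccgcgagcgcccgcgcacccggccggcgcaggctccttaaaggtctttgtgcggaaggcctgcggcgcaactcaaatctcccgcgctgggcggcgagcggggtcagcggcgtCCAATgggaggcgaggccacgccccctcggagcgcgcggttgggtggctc

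The 4 mitosis promoters below belong to genes that were higher in control wounds at day 7 than in untreated skin, with the same motifs in capitals. Each holds CCAAT boxes and a CHR, and those of Mki67 and Cdk1 also hold E2F cores.
Mki67, chr7:135716380-135716629, minus strand: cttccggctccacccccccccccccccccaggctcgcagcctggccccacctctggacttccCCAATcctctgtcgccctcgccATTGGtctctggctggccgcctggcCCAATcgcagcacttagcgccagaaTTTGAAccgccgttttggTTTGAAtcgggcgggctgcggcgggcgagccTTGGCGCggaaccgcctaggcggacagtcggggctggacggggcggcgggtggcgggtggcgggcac
Cdk1, chr10:69352913-69353162, minus strand: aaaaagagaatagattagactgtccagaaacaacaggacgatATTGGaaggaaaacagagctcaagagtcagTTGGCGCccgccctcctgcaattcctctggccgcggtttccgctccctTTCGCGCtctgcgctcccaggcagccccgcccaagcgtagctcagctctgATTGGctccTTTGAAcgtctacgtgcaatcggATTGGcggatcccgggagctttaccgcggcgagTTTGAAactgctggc
Cdc20, chr4:118437344-118437593, minus strand: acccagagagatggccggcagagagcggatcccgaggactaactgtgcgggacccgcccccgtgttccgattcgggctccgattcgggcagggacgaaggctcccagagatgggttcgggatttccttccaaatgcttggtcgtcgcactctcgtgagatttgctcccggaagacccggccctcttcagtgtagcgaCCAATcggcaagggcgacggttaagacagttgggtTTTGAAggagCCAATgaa
Ube2c, chr2:164769679-164769928, plus strand: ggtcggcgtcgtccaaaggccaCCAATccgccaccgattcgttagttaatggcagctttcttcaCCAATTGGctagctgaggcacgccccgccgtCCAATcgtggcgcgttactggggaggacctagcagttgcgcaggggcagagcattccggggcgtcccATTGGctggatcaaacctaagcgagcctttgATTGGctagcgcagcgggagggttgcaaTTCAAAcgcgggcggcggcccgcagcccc

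Values are log2 of the deposited intensity, and differences are log2 fold changes. A gene was called higher or lower when limma gave an adjusted p under 0.05 over all 20672 probe sets. The levels of different probe sets on an array are not comparable, so each gene is compared with itself only. Tyms, the thymidylate synthase gene, at 2.98 to 4.13, and Kif23, a kinesin of the midbody, at 3.07 to 4.84, lay near the range of Y-linked probe sets in these female mice (2.31 to 3.78), so their differences may understate a change. The labels do not say which arrays came from separate animals, and p-values measure the spread between arrays. Each array holds a mixture of cells, in which fewer dividing cells and less RNA per dividing cell cannot be told apart.

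2 arrays stood apart. For each list a mean was taken over its genes, each centred on its own mean over the 42 arrays. For the 9 measured hair follicle genes (keratins of the inner root sheath and cortex, Tchh and others) this mean was 6.59 in untreated array 5 and -0.38 to -0.27 in the 4 other untreated arrays. It was 3.71 in PDGF array 4 at 24 h. Untreated array 5 also had the lowest adipocyte mean of its group, -0.80 against 1.53 to 2.33. Its mean over the 23 mitosis genes was 0.83, against -1.32 to -0.33 in the other 4 untreated arrays, and over the 20 replication genes 0.44 against -0.93 to -0.19. It was the highest of the untreated arrays for 44 of the 47 genes, among them all 23 mitosis genes, and the highest of all 42 arrays for 22 genes. Untreated array 1 was the lowest of its group for 45 genes. The counts of genes called against untreated skin are given with and without array 5, a choice made after the values were seen. The part of hair follicles in these levels was not tested. PDGF array 4 at 24 h had a mitosis mean of -0.18 and a replication mean of 0.29, within the range of the other PDGF arrays at 24 h.

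**Figure D1:**
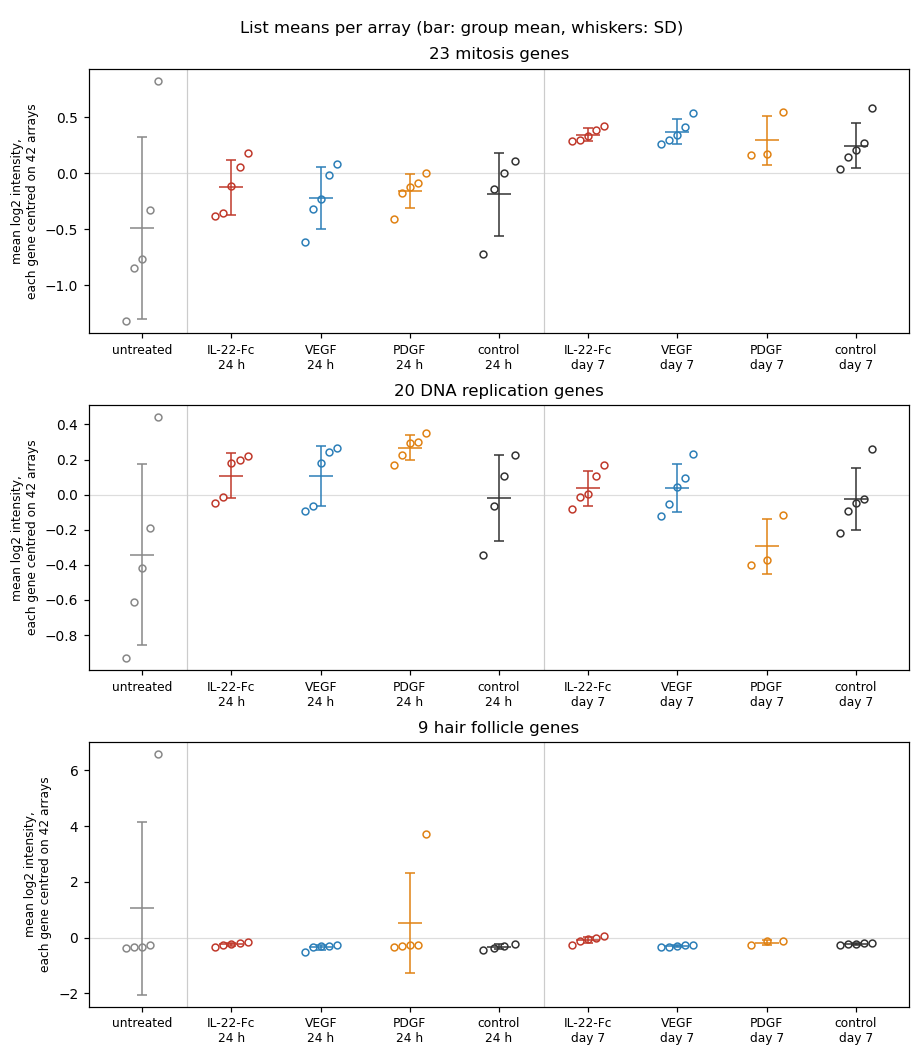
Mean log2 intensity per array of 23 mitosis genes (top), 20 replication genes (middle) and 9 hair follicle genes (bottom), each gene centred on its mean over 42 arrays; circles are arrays, bars group means and whiskers SD. Untreated array 5 has the highest mitosis mean, 0.83, and the highest hair follicle mean, 6.59, and the replication means of the 3 PDGF arrays at day 7 lie between -0.40 and -0.12.

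The first comparison set control wounds, which had received the control protein, against untreated skin. Wounding, the control protein and any difference in genotype cannot be told apart in it. The level of the 5′ control probe set of Gapdh was 11.14 to 12.92 in untreated skin. It was 12.21 to 13.27 in control wounds at 24 h and 12.82 to 12.99 at day 7. No fit with this 5′ level as a covariate was made against untreated skin, and its part was not tested. 8 of 47 genes were higher at 24 h and 0 lower, beside 19.3% of all probe sets higher and 20.2% lower. They were 6 of 20 replication genes, 1 of 23 mitosis genes and 1 of 4 regulators. Over the 47 genes the share that was higher was no larger than that of all probe sets. The median change was 0.36 over the replication genes and 0.28 over the mitosis genes, beside 0.03 over all probe sets. No test of a difference between the lists was made. Licensing and helicase genes, which load and drive the replicative helicase, held 5 of the 8 (Mcm3, Mcm4, Mcm5, Cdt1 and Gins1). Marker lists moved in the same comparison. All 4 wound keratinocyte genes were higher, with list means of 0.35 to 0.75 in control wounds and -5.24 to -2.11 in untreated skin. So were 6 of 7 macrophage genes (0.38 to 0.76 against -2.79 to -0.34) and all 4 measured neutrophil genes (0.83 to 1.61 against -4.31 to -3.32). All 5 measured suprabasal keratinocyte genes and all 4 measured adipocyte genes were lower. Their part in the result was not tested.

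Mcm5, a subunit of the helicase, read 7.73, 7.72, 7.61 and 7.21 in control wounds at 24 h and 5.69, 6.78, 7.00, 6.20 and 8.31 in untreated skin. The 4 wound arrays lay above the first 4 untreated arrays and below the fifth. The log2 fold change was 0.77 ± 0.26 (SE, adjusted p = 0.018) with all arrays and 1.15 ± 0.20 (adjusted p = 9.3e-06) without untreated array 5. Mcm3 rose by 0.83 (adjusted p = 0.00097), and Mcm4 and Cdt1, which recruits the helicase to origins, rose by 0.46 and 0.57. Mcm2 read 7.94, 7.96, 7.71 and 7.53 in control wounds and 6.59, 7.23, 7.35, 6.85 and 8.50 in untreated skin, and passed the test only without array 5, by 0.78 (adjusted p = 1.9e-05). Plk1, a kinase that drives entry into mitosis and spindle assembly, was the 1 mitosis gene called, at 8.05, 7.72, 7.81 and 7.13 in control wounds against 5.91, 6.49, 7.05, 6.29 and 8.37 in untreated skin, a change of 0.86 ± 0.27 (SE, adjusted p = 0.01). Here too the wound arrays overlapped untreated skin through array 5.

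Without untreated array 5 the count at 24 h was 34 of 47 higher and 0 lower (14 of 20 replication genes, 19 of 23 mitosis genes and 1 of 4 regulators), beside 23.2% of all probe sets higher. It was 5 with untreated array 1 left out, of which 2 were lower, 5 each without untreated array 4 or control array 1, and 13 without control array 4. The number of genes called at 24 h thus depended on single arrays, in both directions.

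At day 7 mitosis genes were the ones most often higher. 26 of 47 genes were higher in control wounds than in untreated skin and 0 lower, beside 18.2% of all probe sets higher and 18.6% lower. These were 18 of 23 mitosis genes, 6 of 20 replication genes, Ccne1 and E2f1. The median change was 0.73 over the mitosis genes, 0.25 over the replication genes and 0.04 over all probe sets. The largest changes were those of Bub1 (1.14), a kinase of the spindle checkpoint, Birc5 (1.14), the survivin subunit of the chromosomal passenger complex, Plk1 (1.08) and Rrm1 (1.02), the large subunit of ribonucleotide reductase. Without untreated array 5 the count was 40 higher and 0 lower, beside 20.8% of all probe sets higher and 19.8% lower. It was 15 without untreated array 1, of which 1 was lower, and 17 without control array 2. Marker lists moved in the same comparison. All 7 macrophage and all 4 measured neutrophil genes were higher and all 4 measured adipocyte genes lower. Wound keratinocyte list means were 0.42 to 0.73 in control wounds and -5.24 to -2.11 in untreated skin. Fibroblast list means were 0.75 to 1.11 and -0.81 to 0.29. The part of these markers in the result was not tested.

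Birc5 read 8.53, 8.90, 8.30, 8.60 and 8.28 in control wounds at day 7 and 6.23, 7.07, 7.84, 6.93 and 8.87 in untreated skin. Every wound array was above 4 untreated arrays, and the fifth lay within the wound range. The change was 1.14 ± 0.26 (SE, adjusted p = 0.00056), and 1.51 ± 0.20 (adjusted p = 1.6e-07) without array 5. Cdk1, the kinase that starts mitosis with cyclin B, read 8.30, 8.59, 8.05, 8.17 and 8.30 in control wounds and 6.51, 7.18, 7.65, 7.00 and 8.89 in untreated skin, a change of 0.83 ± 0.23 (SE, adjusted p = 0.0033). Mki67, the proliferation marker Ki-67, read 10.46, 10.76, 10.18, 10.48 and 10.15 in control wounds and 8.90, 9.53, 9.83, 9.28 and 11.42 in untreated skin. Its change was 0.61 ± 0.24 (SE, adjusted p = 0.042), and 1.02 ± 0.16 (adjusted p = 2e-06) without array 5.

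Aurkb, the Aurora kinase of the passenger complex, was at 6.53, 7.02, 6.07, 6.26 and 6.39 in control wounds and at 5.08, 5.54, 5.83, 5.40 and 7.02 in untreated skin, a change of 0.68 ± 0.22 (SE, adjusted p = 0.015). Foxm1, the factor that drives many mitosis genes, was at 6.54, 6.68, 6.58, 6.16 and 6.56 in control wounds against 5.57, 6.13, 5.91, 5.80 and 6.78 in untreated skin, a change of 0.47 ± 0.15 (SE, adjusted p = 0.013). All wound arrays of both genes lay above the first 4 untreated arrays and below the fifth. Over the whole list, 22 of 23 mitosis genes had all 5 wound arrays above those 4 untreated arrays, and 0 of 23 above all 5. Top2a, topoisomerase II alpha, was the exception, at 5.98, 6.17, 5.66, 5.91 and 5.29 in control wounds and 5.58, 6.25, 5.60, 6.14 and 6.57 in untreated skin. Its groups overlapped throughout and it was not called. The same count of separated groups was not made over all probe sets, so the 22 of 23 has no background share beside it. Array 5 was set aside after its values were seen. It was the highest untreated array for all 23 mitosis genes, so leaving it out could only raise the count.

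Genes of the cycle beyond the 48 were counted as well, from lists chosen with earlier results known. Of 43 further mitosis genes 29 were higher in control wounds at day 7 than in untreated skin and 0 lower. Beside them stand the 18.2% and 18.6% of all probe sets given above. Without untreated array 5, 38 were higher and 0 lower, beside 20.8% and 19.8% of all probe sets. They were led by Depdc1a (1.18 with all arrays and 1.59 without array 5), Hmmr (1.10 and 1.18), a spindle assembly factor, and Cenpn (1.03 and 1.31), a centromere protein. Of 32 further replication genes 9 were higher and 3 lower, against 20 and 1 without array 5. Of 17 inhibitors and brakes 4 were higher and 6 lower, against 2 and 5 without array 5. Among these, Cdkn2a (1.43 and 1.49) and the stress gene Gadd45a (0.96 and 1.10) were higher and Cdkn2c (-0.71 and -0.73), which encodes the inhibitor p18, and Cdkn1a (-0.55 and -0.50), which encodes p21, were lower in both fits. Ccnd2, which encodes cyclin D2, was lower, at -1.35 and -1.32, and E2f8, an E2F repressor, was higher, at 1.09 and 1.42. At 24 h 7 of the 43 further mitosis genes were higher and 1 lower, which is no larger a share than the 19.3% of all probe sets that were higher, whereas without array 5 it was 27 and 1, beside 23.2%. Cdkn1c was lower at 24 h than in untreated skin, at -1.76 with all arrays and -1.89 without array 5.

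Ribonucleotide reductase, which makes the deoxynucleotides for replication, differed most clearly among the replication genes. Rrm1 read 8.80, 9.05, 8.47, 8.68 and 8.44 in control wounds at day 7 and 7.30, 7.75, 7.96, 7.62 and 7.72 in untreated skin, with untreated array 5 inside its own group. Rrm2, the small subunit, read 8.16, 8.55, 8.00, 8.10 and 8.01 in control wounds and 6.38, 6.87, 7.70, 6.85 and 7.93 in untreated skin. Both genes separated the groups completely, the only 2 of 47 to do so. Their changes were 1.02 ± 0.18 (SE, adjusted p = 2e-05) and 1.01 ± 0.22 (SE, adjusted p = 0.00039). The share of all probe sets that separated the groups was not counted. Pcna, the sliding clamp of DNA polymerase, was not called, at 11.24, 11.44, 11.05, 11.16 and 11.23 in control wounds and 10.71, 10.97, 11.44, 10.99 and 11.61 in untreated skin.

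**Figure D2:**
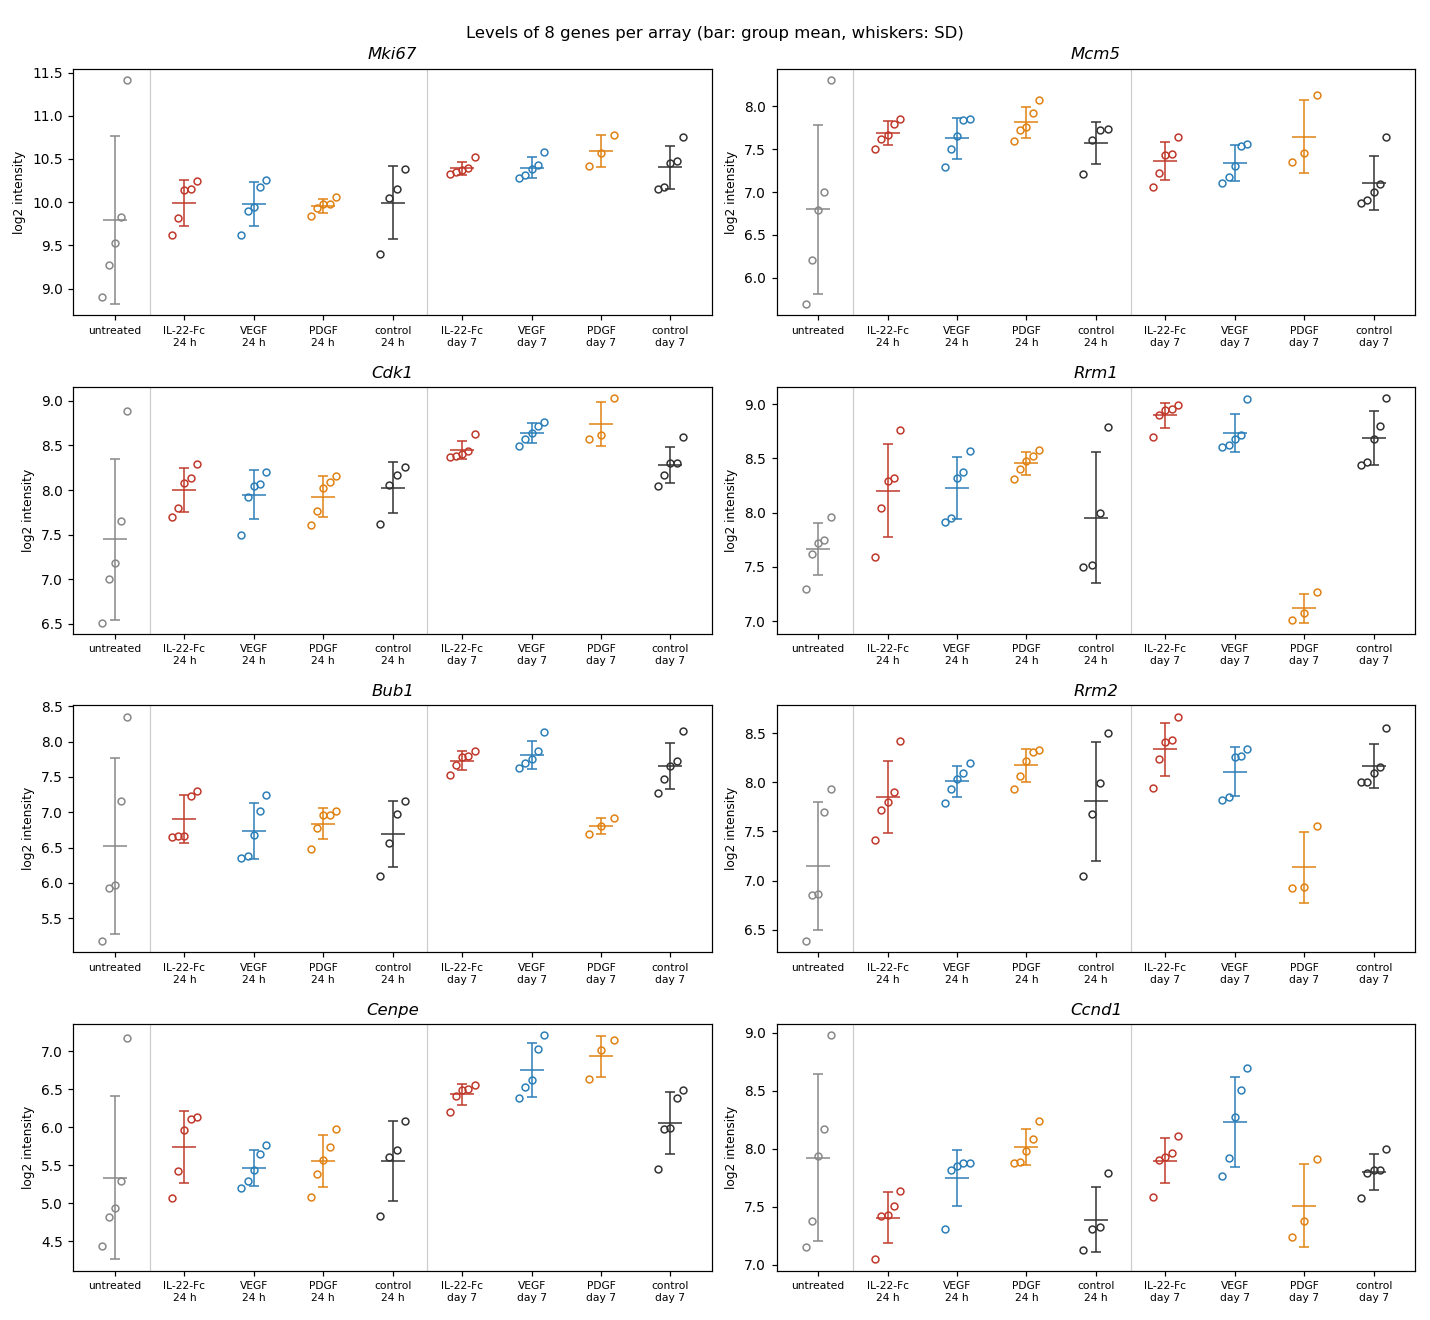
Log2 intensity of 8 genes in each array of the 9 groups; circles are arrays, bars group means and whiskers SD. Rrm1, Rrm2 and Bub1 are low in the 3 PDGF arrays at day 7 (Rrm1 at 7.01 to 7.26), Cenpe is high there, and untreated array 5 is the highest untreated array in all panels but that of Rrm1.

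Between the 2 times in control wounds, 6 of 47 genes were higher at day 7 than at 24 h and 0 lower, beside 14.1% of all probe sets higher and 16% lower. They were Bub1 (0.96), Rrm1 (0.74), Mad2l1 (0.68), a spindle checkpoint protein, Kif23 (0.67), Ccna2 (0.65), which encodes cyclin A2 of S phase and G2, and Gins2 (0.50), a part of the active helicase. The share of the 47 genes that was higher was no larger than that of all probe sets. The median over the mitosis genes was 0.43 with 22 of 23 above 0, and over the replication genes -0.05 with 9 of 20 above 0. The 11 licensing and helicase genes had a median of -0.29. The count was 18 without untreated array 5, which enters only through the shared spread, 11 without untreated array 1 and 2 without control array 4 at 24 h. Marker list means differed between the times too. Fibroblast means were 0.75 to 1.11 at day 7 and -1.09 to -0.53 at 24 h. Suprabasal keratinocyte means were 0.50 to 0.78 and -0.25 to -0.13, and neutrophil means -0.96 to -0.12 and 0.83 to 1.61. Their part in the result was not tested.

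The same contrast of times was added for the treated wounds after the values were seen, and each treatment has its own arrays. With IL-22-Fc 8 genes were higher at day 7 and 0 lower, beside 12.9% and 15.1% of all probe sets. With VEGF 15 were higher and 1 lower (Cdt1), beside 15.7% and 21.5%. With PDGF 12 were higher and 14 lower, beside 19.8% and 17.5%. All 8 genes of the IL-22-Fc wounds were among the 15 of the VEGF wounds, and 4 of them (Bub1, Ccna2, Mad2l1 and Rrm1) were among the 6 of the control wounds. PDGF wounds shared 0 of these 6. Their higher genes were mitosis genes with E2f1, led by Cenpe (1.38), Birc5 (1.18), Cenpa (0.97) and Cdc20 (0.95). Their lower genes were replication genes with Ccne2, led by Rfc4 (-1.38), Rrm1 (-1.34), Gins2 (-1.18) and Rrm2 (-1.03). Rrm1 was thus higher at day 7 than at 24 h in control, IL-22-Fc and VEGF wounds and lower in PDGF wounds. In PDGF wounds the 5′ level of Gapdh, a control probe set on the array, was 13.12 at 24 h and 11.48 at day 7. Its part in these differences was not tested.

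**Figure D3:**
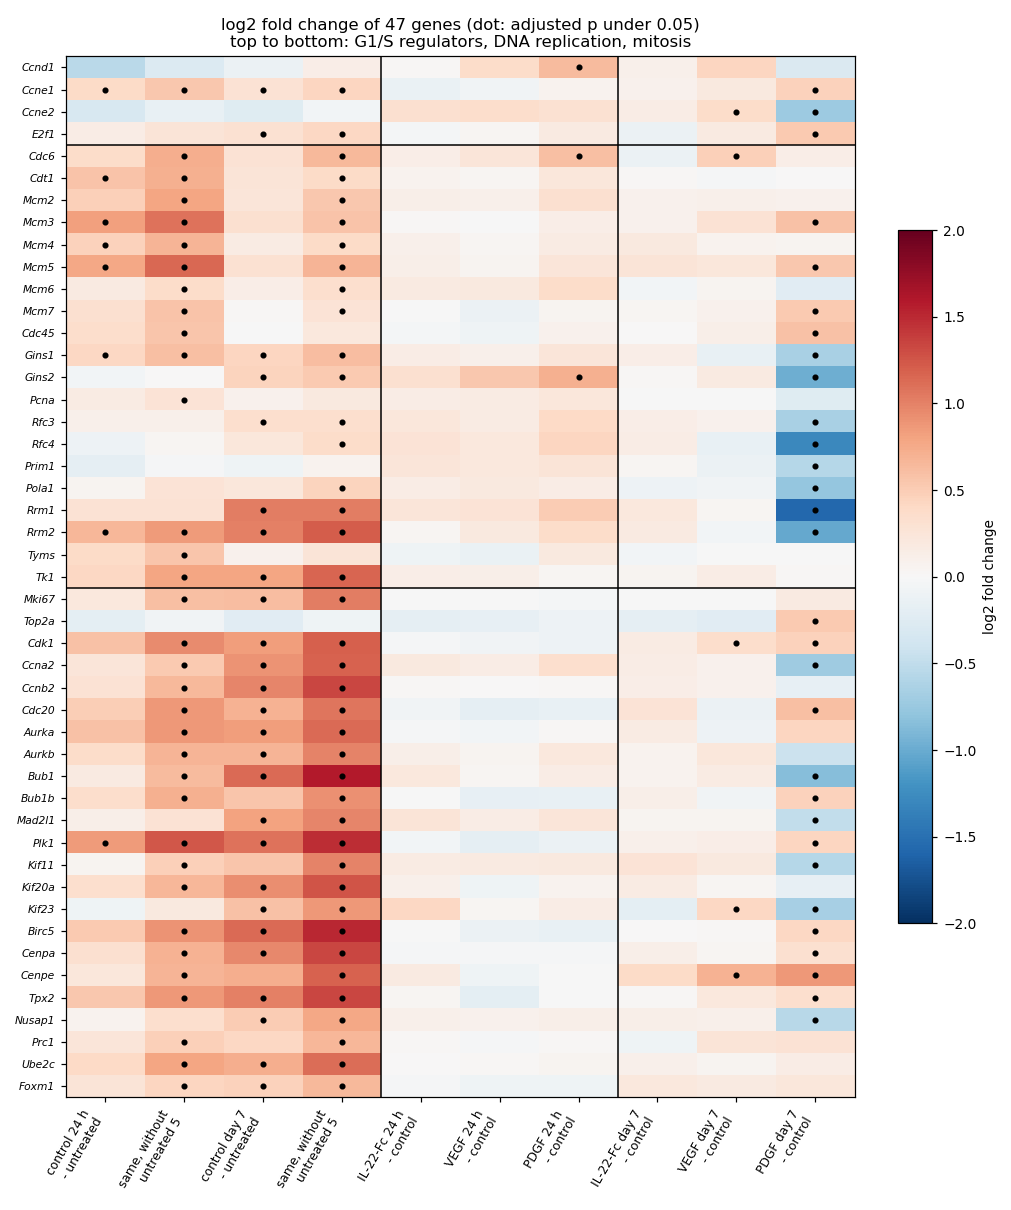
Log2 fold changes of the 47 genes (rows, in the order regulators, replication, mitosis) in 10 columns; red is higher and blue lower in the group named first, and a dot marks an adjusted p under 0.05. Leaving out untreated array 5 adds dots to both contrasts with untreated skin (8 against 34 at 24 h, 26 against 40 at day 7), and the PDGF column at day 7 is the only treatment column with both colours called.

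The second question was whether a single dose changed these genes within 24 h. IL-22-Fc and VEGF gave 0 called genes of 47 at 24 h by limma, beside 0.111% and 0.135% of all probe sets called in either direction. At an unadjusted p under 0.05 there were 2 and 3 genes, beside 7.01% and 9.39% of all probe sets. Cdk1 read 8.29, 8.08, 7.80, 7.70 and 8.14 with IL-22-Fc, 8.07, 8.05, 7.92, 7.49 and 8.21 with VEGF and 8.26, 8.17, 8.05 and 7.62 in control wounds. The 3 groups covered nearly the same range.

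With PDGF at 24 h 3 of 47 genes were higher and 0 lower, beside 0.489% of all probe sets higher and 1.4% lower. Ccnd1, which encodes cyclin D1, the cyclin that answers growth factors in G1, read 7.98, 7.88, 7.89, 8.09 and 8.24 with PDGF and 7.32, 7.79, 7.13 and 7.31 in control wounds, with no overlap. Its change was 0.63 ± 0.14 (SE, adjusted p = 0.026). Cdc6, which loads the helicase on origins, read 6.27, 6.38, 6.39, 6.11 and 5.89 with PDGF and 5.67, 5.59, 5.76 and 5.43 in control wounds, a change of 0.59 ± 0.14 (SE, adjusted p = 0.04). The lowest PDGF array was above the highest control array for both genes. Gins2 read 6.76, 6.74, 6.84, 6.80 and 6.71 with PDGF and 6.12, 6.32, 6.10 and 5.69 in control wounds, a change of 0.71 ± 0.18 (SE, adjusted p = 0.046).

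All 20 replication genes had a positive change with PDGF at 24 h, with a median of 0.25, and 12 of 23 mitosis genes did, with a median of 0.03. Over all probe sets the median was 0.00. The 5′ level of Gapdh, a control probe set on the array, was 13.12 ± 0.13 (SD, n = 5) with PDGF and 12.57 ± 0.48 (SD, n = 4) in control wounds. With the 5′ level of Gapdh and Actb as a covariate, chosen after the values were seen, 0 genes were called. The changes were then 0.43 for Ccnd1, 0.56 for Cdc6 and 0.47 for Gins2. Not all replication genes stayed positive in that fit. Prim1 (-0.01), Rrm1 (-0.04), Rrm2 (-0.04), Tyms (-0.01) and Tk1 (-0.15) were negative. Of the marker lists, 2 of 5 skeletal muscle genes were lower, with list means of -1.23 to -0.32 with PDGF and -0.26 to 0.43 in control wounds. Fibroblast genes had 0 of 7 called, with list means of -1.41 to -1.01 against -1.09 to -0.53, and neutrophil genes 0 of 4, with 1.43 to 1.54 against 0.83 to 1.61. The part of these markers in the result was not tested. The 3 calls were near the threshold. 0 genes were called without PDGF array 1, PDGF array 4 (whose hair follicle genes are high), control array 1, control array 3 or control array 4, 1 without VEGF array 5 or PDGF arrays 2, 3 or 5, and 9 without control array 2. Without PDGF array 4 the changes were 0.61 for Ccnd1, 0.62 for Cdc6 and 0.71 for Gins2, with adjusted p of 0.062, 0.062 and 0.096. Of the further replication genes, 2 of 32 were higher, Chek1 (0.67), a checkpoint kinase, and Hells (0.52), a chromatin remodeler.

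The third question was how repeated treatment left these genes at day 7. IL-22-Fc gave 0 called genes of 47 at day 7 by limma, beside 5.45% of all probe sets called in either direction. At an unadjusted p under 0.05 there were 3 genes, beside 18.5% of all probe sets. Cenpe, a kinetochore kinesin, read 6.49, 6.51, 6.21, 6.41 and 6.56 with IL-22-Fc and 6.38, 6.49, 5.97, 5.45 and 6.00 in control wounds, a difference of 0.38 ± 0.18 (SE, adjusted p = 0.25) with overlapping groups. Mki67 read 10.35, 10.33, 10.38, 10.52 and 10.40 with IL-22-Fc, inside the control range of 10.15 to 10.76. The IL-22-Fc arrays were close to each other, with mitosis means of 0.29 to 0.42 against 0.04 to 0.58 in control wounds. The median over the mitosis genes was 0.11 with 19 of 23 positive, and over the replication genes 0.05 with 15 of 20 positive. 1 gene was called when control array 2 was left out. Outside the 48 genes, Cdkn1c, which encodes the inhibitor p57, was higher with IL-22-Fc by 0.83 (adjusted p = 0.00011), and Cdkn2a, which encodes p16 and p19ARF, fell by 0.85 (adjusted p = 0.023). They were 2 of 17 measured inhibitors and brakes. Ccnd2, which encodes cyclin D2, fell by 0.51 (adjusted p = 0.00062).

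VEGF at day 7 gave 5 higher genes of 47 and 0 lower, beside 5.96% of all probe sets higher and 8.74% lower. Cdc6 read 5.98, 6.06, 5.94, 6.07 and 6.03 with VEGF and 5.42, 5.83, 5.35, 5.66 and 5.45 in control wounds, a change of 0.48 ± 0.10 (SE, adjusted p = 0.0017). The groups did not overlap, and the 5 VEGF arrays lay within a narrow range. Cenpe read 7.21, 7.02, 6.38, 6.53 and 6.62 with VEGF and 6.38, 6.49, 5.97, 5.45 and 6.00 in control wounds, a change of 0.70 ± 0.18 (SE, adjusted p = 0.0088) with overlap at the lowest VEGF array. Kif23, near background, differed by 0.42 without overlap (adjusted p = 0.014). Cdk1 read 8.64, 8.72, 8.50, 8.76 and 8.57 with VEGF and 8.30, 8.59, 8.05, 8.17 and 8.30 in control wounds, a change of 0.36 ± 0.10 (SE, adjusted p = 0.022). Ccne2, which encodes cyclin E2, read 7.04, 7.10, 7.18, 7.04 and 7.60 with VEGF and 6.75, 6.85, 6.65, 6.75 and 7.14 in control wounds, a change of 0.36 ± 0.11 (SE, adjusted p = 0.034).

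Most genes of the list did not pass with VEGF. The median was 0.09 over the mitosis genes and 0.06 over the replication genes, beside -0.01 over all probe sets. The counts were 3 without control array 3 or without control array 4, and 0 genes passed in 1 fit over all 42 arrays. Endothelial markers moved in the same wounds, with all 8 genes higher and list means of 0.96 or more with VEGF against -0.30 to -0.10 in control wounds, while 6 of 7 basal keratinocyte genes were lower. Their part in the higher division genes was not tested. Cdkn1c was higher with VEGF as well, by 0.99 (adjusted p = 5.1e-06), and Cdkn1a, which encodes the inhibitor p21, fell by 0.33 (adjusted p = 0.018). Of the further replication genes 5 of 32 were higher, among them Clspn (0.46) and Pold3 (0.44), and 0 lower. Of the further mitosis genes 1 of 43 was higher, Nuf2 (0.42).

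With PDGF at day 7 genes were called in both directions. 15 of 47 genes were higher and 15 lower, beside 18.9% of all probe sets higher and 16% lower. Among replication genes 4 of 20 were higher and 8 lower, with a median of -0.11, and among mitosis genes 9 of 23 were higher and 6 lower, with a median of 0.22. The median over all probe sets was 0.04. All 4 called genes of the polymerase and clamp loader group (Rfc4, Pola1, Rfc3 and Prim1) and both subunits of ribonucleotide reductase were lower, while Mcm3, Mcm5, Mcm7 and Cdc45, which belong to the helicase, were higher. Gins1 and Gins2, the GINS subunits of the same helicase, were lower. Marker lists moved with PDGF too. Of 7 fibroblast genes 5 were lower and 1 higher, with list means of -0.16 to 0.53 with PDGF and 0.75 to 1.11 in control wounds. All 4 measured adipocyte genes were lower (-1.50 to -0.69 against -0.30 to 0.30), as were 3 of 5 suprabasal keratinocyte genes (-0.32 to 0.09 against 0.50 to 0.78) and 3 of 6 pericyte and smooth muscle genes (-0.59 to -0.19 against -0.02 to 0.26). Their part in the result was not tested.

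Rrm1 read 7.08, 7.01 and 7.26 with PDGF at day 7 and 8.80, 9.05, 8.47, 8.68 and 8.44 in control wounds, a change of -1.57 ± 0.13 (SE, adjusted p = 9e-09). The PDGF values were below every other array of the 42, untreated skin included. Rrm2 read 7.55, 6.93 and 6.92 with PDGF and 8.16, 8.55, 8.00, 8.10 and 8.01 in control wounds, a change of -1.03 ± 0.18 (SE, adjusted p = 9.5e-05). Rfc4, a subunit of the clamp loader, read 6.28, 6.52 and 6.32 with PDGF and 7.63, 8.06, 7.43, 7.71 and 7.48 in control wounds, a change of -1.29 ± 0.14 (SE, adjusted p = 2.7e-07). These genes separated the groups completely. Pcna, the clamp that Rfc4 loads, was not called, at 11.14, 10.89 and 10.93 with PDGF and 11.24, 11.44, 11.05, 11.16 and 11.23 in control wounds. Tyms was not called either, at 3.68, 3.52 and 3.35 with PDGF and 3.78, 3.13, 3.43, 3.66 and 3.60 in control wounds, close to background.

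On the other side, Mcm5 read 8.13, 7.46 and 7.35 with PDGF and 7.00, 7.64, 6.87, 7.10 and 6.91 in control wounds, a change of 0.54 ± 0.18 (SE, adjusted p = 0.026). PDGF array 1 was far above the other arrays, and control array 2 overlapped the PDGF group. Mcm3 rose by 0.59 (adjusted p = 0.0024) and Cdc45, which joins the helicase at firing origins, by 0.59 (adjusted p = 0.0011). Mcm2 was not called, at 7.80, 7.54 and 7.56 with PDGF and 7.47, 7.90, 7.26, 7.50 and 7.61 in control wounds, and Mcm4, Mcm6, Cdc6 and Cdt1 were not called. The 3 called helicase subunits, Mcm3, Mcm5 and Mcm7, are thus among 6 on the array.

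Mitosis genes were called in both directions too. Of the spindle checkpoint, Bub1 read 6.92, 6.70 and 6.81 with PDGF and 7.73, 8.14, 7.28, 7.66 and 7.47 in control wounds, a change of -0.85 ± 0.15 (SE, adjusted p = 0.00013), and Mad2l1 fell by 0.50. Bub1b, which encodes the checkpoint kinase BubR1, rose by 0.46 (adjusted p = 0.013), and Cdc20, the activator of the anaphase-promoting complex, by 0.60 (adjusted p = 0.0011). Of the motor proteins, Kif11, the kinesin that pushes the spindle poles apart, fell by 0.58 and Kif23 by 0.66, whereas Cenpe rose by 0.87 (adjusted p = 0.0018). Ccna2 fell by 0.72 while its kinase partner Cdk1, at 9.03, 8.57 and 8.62 with PDGF and 8.30, 8.59, 8.05, 8.17 and 8.30 in control wounds, rose by 0.46 ± 0.12 (SE, adjusted p = 0.0045).

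The group of Plk1, both Aurora kinases and their partners Birc5 and Tpx2 held 3 higher genes of 5 (Plk1, Birc5 and Tpx2) and 0 lower, and of its 3 kinases only Plk1 was called. Birc5 read 9.25, 8.78 and 8.77 with PDGF and 8.53, 8.90, 8.30, 8.60 and 8.28 in control wounds, a change of 0.41 ± 0.13 (SE, adjusted p = 0.019). Plk1 read 8.79, 8.14 and 8.06 with PDGF and 7.90, 8.01, 7.80, 7.93 and 7.87 in control wounds, a change of 0.43 ± 0.14 (SE, adjusted p = 0.019) without overlap. Aurkb, the partner of Birc5 in the passenger complex, was at 6.11, 5.96 and 5.99 with PDGF and 6.53, 7.02, 6.07, 6.26 and 6.39 in control wounds and was not called. Top2a read 6.79, 6.17 and 6.04 with PDGF and 5.98, 6.17, 5.66, 5.91 and 5.29 in control wounds, a change of 0.53 ± 0.17 (SE, adjusted p = 0.022) that changed sign with the covariate below. Mki67 and Foxm1 were not called. Mki67 was at 10.78, 10.57 and 10.42 with PDGF against 10.15 to 10.76 in control wounds, and Foxm1 at 7.06, 6.51 and 6.62 against 6.16 to 6.68.

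The PDGF arrays at day 7 also had low levels of the probe sets at the 5′ ends of Gapdh and Actb, which are control probe sets on the array. The Gapdh level was 11.48 ± 0.19 (SD, n = 3) with PDGF and 12.90 ± 0.06 (SD, n = 5) in control wounds, and the Actb level 12.66 ± 0.11 and 13.29 ± 0.18. With the mean of both as a covariate, 0 of 47 genes and 0.885% of all probe sets were called for PDGF. The median SE of the 47 genes was 0.40 in that fit and 0.13 without the covariate. The changes in it were, among others, those of Rrm1 (-1.43 ± 0.40), Rfc4 (-1.11 ± 0.42) and Gins2 (-1.12 ± 0.27), with adjusted p of 0.092, 0.21 and 0.057. PDGF and the low 5′ level cannot be told apart in these arrays.

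**Figure D4:**
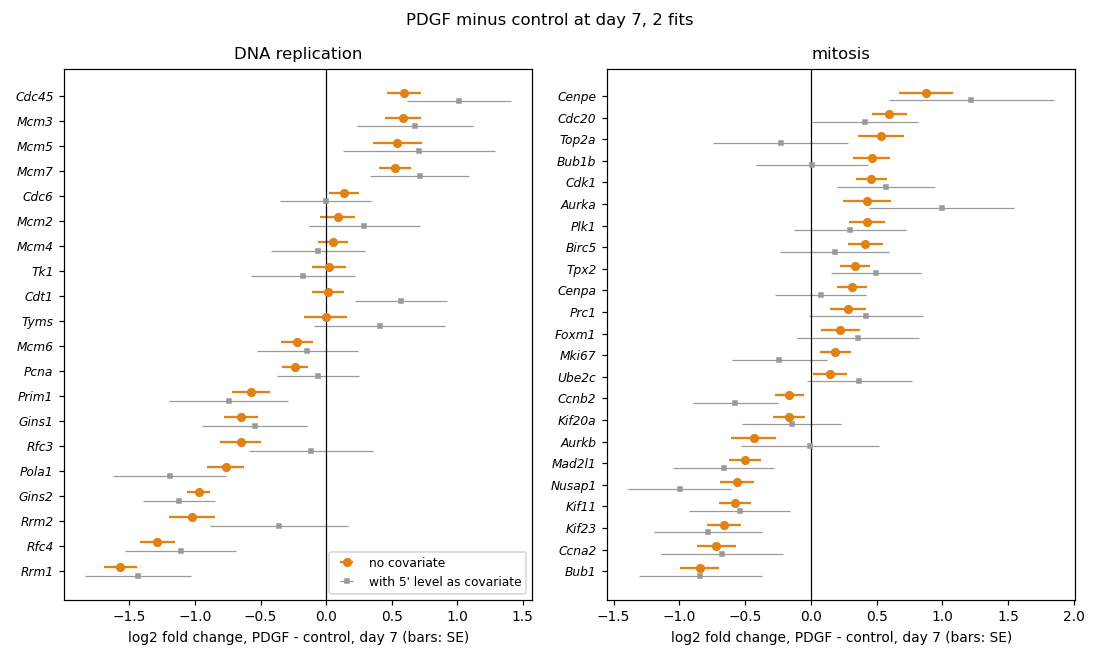
Log2 fold changes, PDGF minus control at day 7, of 20 replication genes (left) and 23 mitosis genes (right), ordered by size; orange circles are the fit without covariate, grey squares the fit with the 5′ level of Gapdh and Actb as covariate, and bars are SE. Rrm1 is lowest at -1.57 and Cenpe highest at 0.87, and the grey bars are about as wide as many of the changes.

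Genes beyond the list were also called in both directions with PDGF at day 7. Of 32 further replication genes 9 were higher, led by Rfc2 (1.02), and 9 lower, led by Rpa2 (-1.05). Of 43 further mitosis genes 8 were higher, led by Espl1 (1.01), which encodes separase, and 12 lower, led by Hmmr (-1.45) and Smc4 (-1.41), a condensin subunit. The share of these mitosis genes that was higher was close to the 18.9% of all probe sets, and 16% of all probe sets were lower. Rfc2 thus moved against Rfc3 and Rfc4 of the same clamp loader. Of 17 inhibitors and brakes 2 were higher and 7 lower. The targets of p53 among them moved apart, with Cdkn1a higher by 0.72 (adjusted p = 1.8e-05) and Ccng1 and Mdm2 lower, at -1.25 and -1.19 (adjusted p = 4.1e-08 and 3e-08).

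Regulators of S phase entry differed between the treatments at day 7. Ccne1, which encodes cyclin E1, read 7.90, 7.64 and 7.48 with PDGF and 7.33, 7.42, 7.17, 7.08 and 7.05 in control wounds, a change of 0.46 ± 0.12 (SE, adjusted p = 0.0033). Ccne2 read 5.94, 6.23 and 6.16 with PDGF against 6.75, 6.85, 6.65, 6.75 and 7.14, a change of -0.72 ± 0.13 (SE, adjusted p = 0.00018). The 2 cyclin E genes thus moved in opposite directions, each without overlap. E2f1, the first of the E2F factors, read 7.53, 7.36 and 7.32 with PDGF and 6.87, 6.97, 6.86, 6.67 and 7.05 in control wounds, a change of 0.52 ± 0.10 (SE, adjusted p = 0.00049). Ccnd1 was not called for any treatment at day 7, at 8.11, 7.96, 7.90, 7.93 and 7.58 with IL-22-Fc, 8.70, 8.51, 7.93, 8.28 and 7.77 with VEGF, 7.91, 7.38 and 7.24 with PDGF and 7.82, 8.00, 7.79, 7.57 and 7.82 in control wounds. VEGF arrays 1, 2 and 4 were above all control arrays, and the other 2 were not.

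Treatments were also compared with each other at day 7, on arrays that the contrasts with the control share. IL-22-Fc against VEGF gave 1 higher gene, Cdc20 (0.39), and 4 lower, Kif23 (-0.62), Cdc6 (-0.60), Prc1 (-0.36) and E2f1 (-0.29), beside 12.1% and 10.8% of all probe sets. Neither share of the genes was larger than that of all probe sets. Cdc6 in IL-22-Fc wounds, at 5.54, 5.52, 5.36, 5.37 and 5.31, lay below all VEGF arrays (5.94 to 6.07, adjusted p = 9.7e-05). The count was 3 without IL-22-Fc array 4. IL-22-Fc against PDGF gave 18 higher and 9 lower genes, beside 17% and 21.1%, led by Rrm1 (1.78), Rfc4 (1.44) and Rrm2 (1.20) on the higher side and Top2a (-0.72), E2f1 (-0.63) and Cdc45 (-0.59) on the lower side. VEGF against PDGF gave 18 higher and 8 lower, beside 17% and 22.7%, led by Rrm1 (1.61), Gins2 (1.15) and Rfc4 (1.13) and by Top2a (-0.76) and Cdc20 (-0.71). In both contrasts with PDGF the share of genes that was lower was no larger than that of all probe sets. With the 5′ covariate both contrasts with PDGF gave 0 calls.

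The last comparison asked whether the effect of a treatment at day 7 differed from its effect at 24 h. For IL-22-Fc and VEGF 0 of 47 genes passed by limma, beside 1.69% and 8.85% of all probe sets called in either direction. At an unadjusted p under 0.05 there were 1 and 2 genes, beside 13.8% and 21.3% of all probe sets. For PDGF 8 genes had a higher and 18 a lower effect at day 7, beside 18.1% and 14.3%. The share with a higher effect was no larger than that of all probe sets. The 5′ level of Gapdh in PDGF wounds was 13.12 at 24 h and 11.48 at day 7. In control wounds it was 12.57 and 12.90. No fit with the 5′ covariate was made for this contrast, and the part of the 5′ level in it was not tested. The lower effects were led by Rrm1 (-2.07 ± 0.28, SE, adjusted p = 6.2e-07), Rfc4 (-1.71), Gins2 (-1.69) and Rrm2 (-1.39), and the higher ones by Cenpe (0.88), Cdc20 (0.75), Top2a (0.63) and Bub1b (0.60). Gins2 was called higher with PDGF at 24 h and lower at day 7, with values of 5.62, 5.53 and 5.61 at day 7 against 6.45, 6.57, 6.44, 6.62 and 6.72 in control wounds. Ccnd1, higher at 24 h, had an effect at day 7 that differed by -0.92 ± 0.24 (SE, adjusted p = 0.0028).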

How the data were processed

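RNA from 42 skin samples was hybridised to Affymetrix Mouse430V2 arrays. The authors deposited a single table of linear intensity values for 20672 probe sets, and the submitters' processing notes name RMA and limma without versions. Array medians were 49.4 to 52.6 and the lowest value 3.85, so log2 was taken here without an offset. 1 gene symbol was given for 17928 probe sets, several for 79 and none for 2665.

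Comparisons used limma 3.58.1 (lmFit and eBayes) in R 4.3.3, with Benjamini-Hochberg adjustment over all probe sets and a threshold of 0.05. Each time point had its own fit for its treatments (18 arrays for day 7, 19 for 24 h). Comparisons with untreated skin or between times used all 42 arrays, and differences of an effect between times used the 37 wound arrays. On simulated data with 200 changed probe sets, the fit called 96% of 2-fold and 75% of 1.5-fold changes for VEGF at day 7, 97% and 75% for VEGF at 24 h, and 95% and 72% for control wounds at day 7 against untreated skin. The changed probe sets were drawn from all probe sets, so these rates are not those of the cell cycle genes. For VEGF at 24 h the real data gave 28 called probe sets, so the adjustment was stricter there than in the simulation. No contrast with PDGF was simulated. The number of arrays limits the precision.

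Every one of the 48 genes could be named. Values in every array were planned for 18 of them, and up to 4 called genes in each direction per comparison were named, with up to 2 not called, and up to 3 in each direction from each further list. Array values of Rrm1, Rfc4, Gins2, Bub1 and Cenpe were added after the values were seen. The genes and lists were chosen with earlier results of these data known. Alternatives were quantile normalization, a 1.5-fold minimum, leaving out the lower 50% of probe sets, array weights, 1 fit over all arrays, a 5′ covariate and leaving out each array. The 5′ covariate at 24 h, leaving out both arrays with high hair follicle genes, and the contrast of times within treated wounds, were chosen after seeing the data. No 2 arrays held identical values (0 pairs). Promoters came from RefSeq.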

Additional observations from a re-analysis of the deposited data

Results flagged for a closer look

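Arrays far from the rest of their group were found in 10 of 152 tests, and chance gives about 1 in 20. Each test took 1 gene, or the mean of the replication or mitosis list, in 1 group. PDGF at day 7, with 3 arrays, was not tested. Untreated skin was tested, and none of its arrays, array 5 included, was among the 10. Hair follicle genes were not tested in this way. In VEGF wounds at day 7, array 2 read 7.02 for Foxm1 (others 6.56 to 6.67), array 5 read 2.98 for Tyms (others 3.57 to 3.71) and 7.60 for Ccne2 (others 7.04 to 7.18), and array 1 read 6.78 for E2f1 (others 7.11 to 7.18). In control wounds at day 7, array 4 read 6.16 for Foxm1 (others 6.54 to 6.68) and array 2 read 8.55 for Rrm2 (others 8.00 to 8.16). With IL-22-Fc, array 1 at day 7 read 8.62 for Cdk1 (others 8.37 to 8.44) and array 5 at 24 h read 5.90 for Aurkb (others 6.31 to 6.40). In VEGF wounds at 24 h, array 4 read 5.80 for Foxm1 (others 6.25 to 6.36) and 7.31 for Ccnd1 (others 7.82 to 7.88).

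The effect of PDGF at day 7 differed from its effect at 24 h, by limma on the difference itself, for 7 of the 17 genes tested. The same test in IL-22-Fc and VEGF wounds, 51 differences in all, found no other. It was higher at day 7 for Top2a (0.63, adjusted p = 0.038), Cdk1 (0.56, adjusted p = 0.037) and Ccne1 (0.39, adjusted p = 0.024). It was lower for Pcna (-0.47, adjusted p = 0.0036), Rrm2 (-1.39, adjusted p = 3e-04), Ccnd1 (-0.92, adjusted p = 0.0028) and Ccne2 (-1.02, adjusted p = 7e-05). No fit with the 5′ covariate was made for these differences.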

How the results depend on the processing

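Counts are genes called of 47. With at least 1.5-fold required, VEGF at day 7 gave 1, PDGF at day 7 15, IL-22-Fc against VEGF 2, IL-22-Fc against PDGF 16, VEGF against PDGF 16 and control wounds at 24 h against untreated skin 4. With the lower 50% of probe sets left out, VEGF at day 7 gave 3, control wounds at 24 h against untreated skin 13 and control wounds at day 7 against 24 h 10. With array weights, PDGF at 24 h gave 7, control wounds at 24 h against untreated skin 36 and day 7 against 24 h 18. In 1 fit over all 42 arrays, VEGF at day 7 gave 0, PDGF at day 7 18, IL-22-Fc against VEGF 1, PDGF at 24 h 1 and the PDGF effect between times 15. With the 5′ covariate VEGF at day 7 gave 3, and PDGF at day 7 and both contrasts with PDGF gave 0. The same covariate at 24 h, chosen after seeing the data, gave 0 for all 3 treatments. In the day 7 fit with the covariate, Top2a was -0.23 for PDGF against control, 0.10 for IL-22-Fc against PDGF and 0.10 for VEGF against PDGF. Ccnd1 was -0.20 there for VEGF against PDGF. All these signs were opposite to those of the day 7 fit without it. With both arrays of high hair follicle genes left out, control wounds against untreated skin gave 33 at 24 h and 40 at day 7, and day 7 against 24 h 18. The causes of these changes were not tested. Quantile normalization kept all 15 counts within 1.5 times.

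With 1 array left out, counts ranged from 0 to 9 for PDGF at 24 h, 5 to 34 for control wounds at 24 h and 15 to 40 at day 7 against untreated skin, 2 to 18 between the times, 0 to 1 for IL-22-Fc at day 7 and for the IL-22-Fc and VEGF effects between times, 3 to 5 for VEGF at day 7, 3 to 7 for IL-22-Fc against VEGF, 23 to 32 for PDGF at day 7, 24 to 30 for IL-22-Fc against PDGF, 21 to 28 for VEGF against PDGF and 19 to 27 for the PDGF effect between times. They were 0 to 0 for IL-22-Fc and VEGF at 24 h. No paired analysis was possible because the replicate numbers only follow the order of the samples.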
